A study of Mus musculus with 2 samples.

Results

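The 9 genes described here were the mouse MHC class II genes H2-Aa, H2-Ab1, H2-Eb1, Cd74, H2-DMa, H2-DMb1, H2-Oa and H2-Ob together with Ciita, chosen by symbol from the 55487 genes of the count table, and all 9 were found. They were followed across the cell classes of medullary thymic epithelial cells (mTECs), which show developing T cells the antigens of other tissues, and across a spermidine treatment. One group was wild-type female C57BL/6J mice aged 4 weeks given the polyamine spermidine (15 mg/kg per day, intraperitoneally, for 7 days), dissolved in phosphate-buffered saline (PBS). The other was wild-type females of the same strain and age given PBS alone on the same schedule. Each group had 2 samples. CD45+ cells were depleted on beads, mTEChi cells and post-Aire mTEClo cells were sorted, and the 4 samples were tagged with antibody-coupled hashtags and run as 1 pooled library of droplet-based 3′ single-cell RNA sequencing, per the labels' protocols. Nothing in the labels says that the 2 samples of a group were separate animals, and p-values therefore reflect the spread between hashed samples, which may be technical.

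An MHC class II molecule is a pair of an α chain and a β chain, here H2-Aa with H2-Ab1 (I-A) and an α chain with H2-Eb1 (I-E). C57BL/6 mice lack a functional H2-Ea gene and therefore show no I-E on the cell surface. Cd74, the invariant chain, fills the groove of a new molecule and escorts it to endosomes, where H2-DM (H2-DMa with H2-DMb1 or H2-DMb2) removes its last fragment and edits the bound peptides. H2-O (H2-Oa with H2-Ob) inhibits H2-DM. Ciita, the class II transactivator, does not bind DNA itself: it is recruited to the promoters by RFX, CREB and NF-Y proteins that sit on the X and Y boxes. In the thymic medulla class II molecules of mTECs and dendritic cells present self peptides to CD4+ thymocytes, and surface class II is what separates mTEChi from mTEClo cells in the usual sort.

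Of the 9 genes, 7 lie on chromosome 17 of GRCm38 (the same assembly as mm10), between 34092340 (the start of H2-Oa) and 34316674 (the end of H2-Eb1). H2-Aa is on the minus strand at chr17:34282744-34287823 and H2-Ab1 beside it on the plus strand at chr17:34257689-34269419. Ciita is on chromosome 16, at chr16:10480059-10528418 on the plus strand. The promoters are shown because the X and Y boxes are what Ciita acts through. RefSeq windows of GRCm38.p6, 250 bases before to 50 after a gene's start, were found for 6 of the 9 members. They were searched on both strands for an X core (TAGCAAC, at most 1 mismatch) followed on the same strand by a Y box (GATTGG, no mismatch) after 10 to 40 bases. The pair was in the windows of 5 of these 6 members, all but H2-DMa, against 0.563% of 32851 mouse promoter windows. The first count is of genes and the second of windows. The boxes were picked because they were already tied to class II promoters, so this is a description and no test. The H2-DMa windows began at 34122582 and 34125268, past its annotated gene start at 34119541. A match describes the letters only, and its absence says nothing about binding. The members' sequences run 5′ to 3′ on the gene's own strand, with the X core and then the Y box in capitals:
H2-Oa: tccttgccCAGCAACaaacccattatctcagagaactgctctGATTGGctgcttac
H2-DMb1: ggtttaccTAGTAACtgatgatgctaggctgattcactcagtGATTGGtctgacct
H2-Ob: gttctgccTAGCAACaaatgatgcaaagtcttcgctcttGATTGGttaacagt
H2-Aa: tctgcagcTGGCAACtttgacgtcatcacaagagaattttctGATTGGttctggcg
H2-Eb1: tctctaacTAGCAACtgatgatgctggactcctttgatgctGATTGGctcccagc

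These stretches lie at chr17:34092293-34092348, chr17:34153087-34153142, chr17:34238808-34238860, chr17:34287859-34287914 (minus strand) and chr17:34305766-34305820, in the order shown. The X core matched TAGCAAC with 0 mismatches in H2-Ob and H2-Eb1 and with 1 in H2-Oa, H2-DMb1 and H2-Aa. The distance between the boxes was 27 bases in H2-Oa, H2-DMb1 and H2-Aa, 26 in H2-Eb1 and 24 in H2-Ob. Alone, the motifs are common: GATTGG was in 16.1% of all windows, TAGCAAC in 3.66%, and TAGCAAC with at most 1 mismatch in 43.5%. H2-DMb2 and H2-Eb2, class II loci beside the members that return in the results, read as follows.
H2-DMb2: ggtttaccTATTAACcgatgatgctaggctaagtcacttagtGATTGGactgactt
H2-Eb2: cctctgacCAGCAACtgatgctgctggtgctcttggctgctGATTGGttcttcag

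H2-Eb2 (chr17:34325533-34325587) kept to 1 mismatch, while H2-DMb2 (chr17:34145116-34145171) had 2, a looser pair that 4.66% of all windows held.

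Spermidine replicates 1 and 2 had 1092 and 805 kept cells with 19764269 and 13881778 unique molecular identifiers (UMIs, counted RNA molecules), and PBS replicates 1 and 2 had 1076 and 766 cells with 17449579 and 13073362. Median UMIs per cell were 16818 and 16254 with spermidine and 14530 and 15939 with PBS. Cells were grouped without using the 9 members, and the 16 clusters gave 11 epithelial classes, a thymocyte-like class and a myeloid cluster, whose 59 dendritic-like cells were taken. Dendritic cells and thymocytes carry CD45, so these cells are what the depletion left. Names rest on marker lists. Of 14 Aire-stage markers, 7 were over 2-fold higher in cluster 0 than in the other cells and 6 in cluster 1, the 2 clusters that formed the Aire-stage class of 998 cells. None of the list was among the 10 leading genes of cluster 1, and 6 of 12 macrophage or monocyte markers were also over 2-fold higher there. Cluster 10, led by Hba-x, Mesp1 and Ccl25, matched no list and is called by its number. It was no separate class at a clustering resolution of 0.5, at a mitochondrial limit of 25% or with members allowed in clustering. It held Aire at 972 CPM (counts per 1000000 UMIs of its class), against 693 CPM in the Aire-stage class. Transit-amplifying-like cells, the dividing mTECs, were not low in Aire either. They held 8204 Aire UMIs in 353 cells, against 13741 in the 998 Aire-stage cells. The name Aire-stage thus does not mark the class with the highest Aire level. The sort used surface class II by its usual definition and the labels used here do not give the ratio in which the sorted cells were mixed, so the gate can set class II levels between classes. Levels across classes are therefore a description with no test, given as the mean ± SD over the 4 samples.

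Together the 9 genes took 3.96% ± 0.134 (SD, n = 4) of all UMIs in Aire-stage cells, about as much as 4.10% ± 0.587 in cluster 10 and somewhat less than 5.39% ± 0.964 in the 59 dendritic-like cells. Transit-amplifying-like cells, the dividing mTECs, reached 2.64% ± 0.0462, and enterocyte- or hepatocyte-like cells 2.30% ± 0.222. Microfold-like cells had 1.48% ± 0.139 and immature mTEC-like cells 1.41% ± 0.0936. Ciliated-like, neuroendocrine-like and keratinocyte-like cells followed at 0.971% ± 0.172, 0.750% ± 0.273 and 0.708% ± 0.0872, and muscle-like cells at 0.311% ± 0.150. Tuft-like cells, mTECs that resemble the chemosensory cells of the gut, were lowest among the epithelial classes at 0.161% ± 0.0150, a level close to the 0.157% ± 0.0586 of the thymocyte-like cells. Mouse thymocytes are not known to make class II molecules, so this class is given beside low values for comparison. Its mean was 0.690% at a mitochondrial limit of 25% and 0.540% with members allowed in clustering, so it is no fixed level, and whether free RNA gives these counts was not tested. Their median depth was 5426 UMIs, against 11617 in tuft-like cells.

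**Figure D1:**
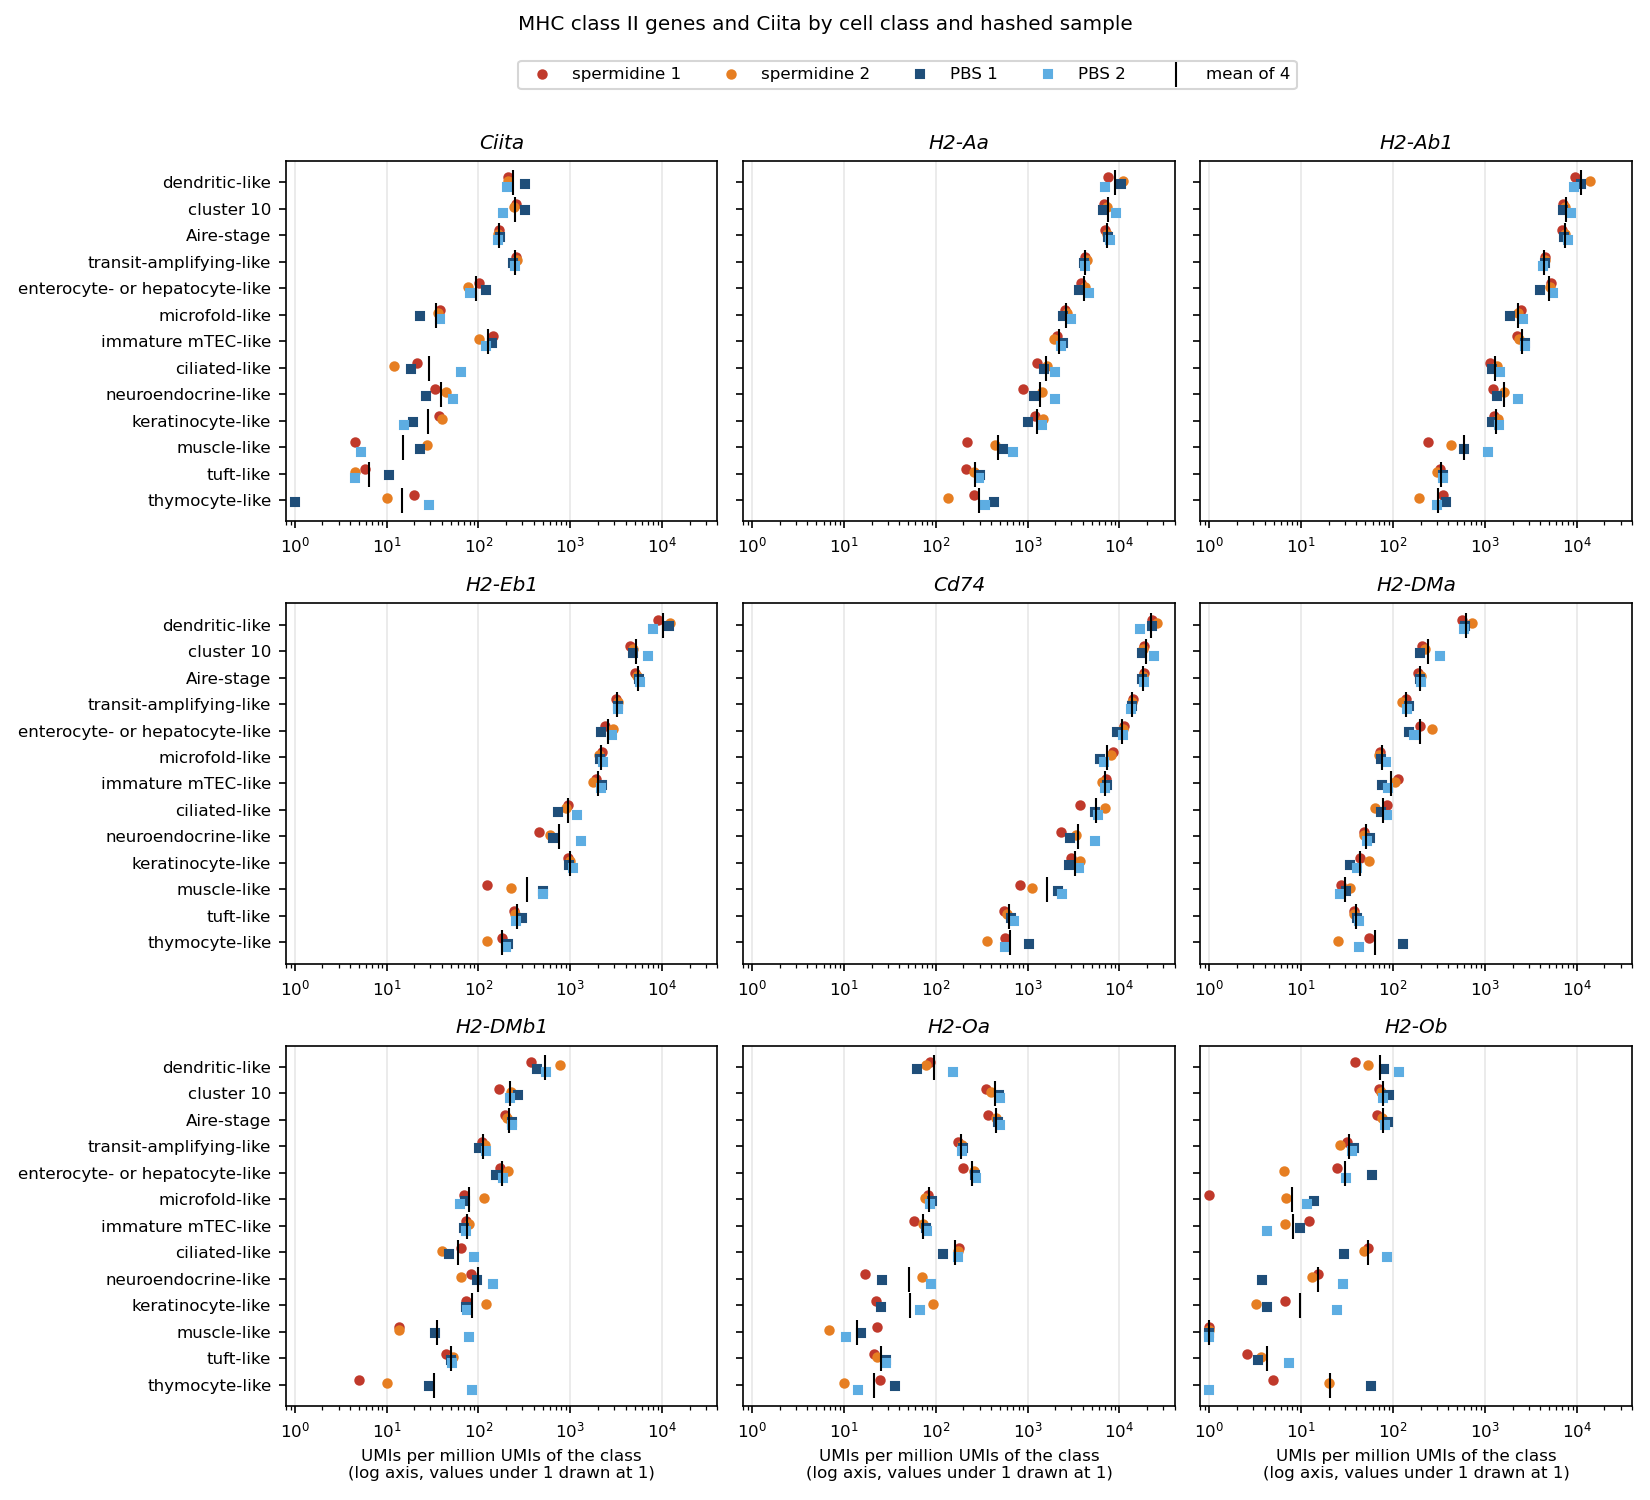
Level of each of the 9 members (CPM on a log axis) in each cell class. Each point is a hashed sample, black lines are means of the 4, and values under 1 are drawn at 1. Dendritic-like cells, cluster 10 and Aire-stage cells are at the top for most members. Tuft-like and thymocyte-like cells are at the bottom for Ciita, H2-Aa, H2-Ab1, H2-Eb1 and Cd74, and muscle-like cells for H2-DMa, H2-Oa and H2-Ob. Ciita is as high in transit-amplifying-like as in dendritic-like cells, and H2-Oa is lower in dendritic-like than in Aire-stage cells.

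The chains of the antigen-presenting molecules were highest in dendritic-like cells. H2-Aa stood at 7439 and 11007 CPM in the spermidine and 10454 and 7045 CPM in the PBS dendritic-like cells (8986 ± 2033, SD, n = 4). Aire-stage cells held 7005 and 7269 CPM of H2-Aa with spermidine and 7524 and 7845 CPM with PBS (7411 ± 359, n = 4). The ranges of these classes overlapped with each other and with that of cluster 10 (7499.8 ± 1184), and all lay above transit-amplifying-like cells (4229 ± 170). H2-Aa in tuft-like cells was 214 and 264 CPM with spermidine and 300 and 298 CPM with PBS, so the lowest Aire-stage value was far above the highest tuft-like value.

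H2-Ab1 separated dendritic-like cells from the rest: the 4 dendritic-like values (11049 ± 2148 CPM) all lay above those of Aire-stage cells (7432 ± 496) and cluster 10 (7629 ± 724). H2-Eb1 did the same, at 10260.0 ± 2198 CPM in dendritic-like and 5468 ± 320 CPM in Aire-stage cells. Its RNA was thus abundant although the α partner was not: H2-Ea gave 19 UMIs in all mTECs together, at 0.312 and 0.749 CPM with spermidine and 0.0586 and 0.156 CPM with PBS. Cd74 was 22014 ± 3779 CPM in dendritic-like, 19375 ± 2826 CPM in cluster 10 and 18156 ± 348 CPM in Aire-stage cells, with overlapping ranges. It was 13709.6 ± 379 CPM in transit-amplifying-like and 10587 ± 864 CPM in enterocyte- or hepatocyte-like cells. In tuft-like cells Cd74 fell to 552 and 593 CPM with spermidine and 653 and 720.2 CPM with PBS, within the range of the thymocyte-like cells (571 and 366 CPM with spermidine, 1044 and 572 CPM with PBS).

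Ciita followed another order. It was highest in cluster 10 (259 and 244 CPM with spermidine, 324 and 185 CPM with PBS), in transit-amplifying-like cells (255 and 265 CPM with spermidine, 237 and 250 CPM with PBS) and in dendritic-like cells (211 and 208 CPM with spermidine, 323 and 207 CPM with PBS), and these ranges overlapped. Aire-stage cells came next, at 165 and 165 CPM with spermidine and 173 and 162 CPM with PBS, below all 4 samples of the transit-amplifying-like class. Immature mTEC-like cells (126 ± 19.6 CPM) and enterocyte- or hepatocyte-like cells (94.4 ± 20.3 CPM) followed, and their ranges overlapped. The neuroendocrine-, microfold-, ciliated-, keratinocyte-, muscle- and tuft-like classes lay at 39.4 CPM or less, and the range of each overlapped with that of the next. Tuft-like cells were lowest, with 95 Ciita UMIs in 989 cells (6.38 ± 2.87 CPM), below the 14.6 ± 12.4 CPM of the thymocyte-like cells, a value from 8 UMIs in 96 cells.

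The mean Ciita level was thus 1.52 times as high in transit-amplifying-like as in Aire-stage cells, while the mean H2-Aa level was 0.571 times as high. The number of H2-Aa UMIs per Ciita UMI showed the same. It was 16.4 and 16.9 with spermidine and 17.2 and 16.7 with PBS in transit-amplifying-like cells, and 42.4 and 44.1 with spermidine and 43.5 and 48.5 with PBS in Aire-stage cells. Immature mTEC-like cells had 17.5 ± 2.16 (n = 4), close to transit-amplifying-like cells, and dendritic-like cells 38.7 ± 9.59. Since 3′ counts of 2 genes can differ in capture, such ratios are compared here across classes only.

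The peptide editor genes H2-DMa and H2-DMb1 were higher in dendritic-like than in Aire-stage cells. H2-DMa was 188 and 200.4 CPM with spermidine and 194 and 204 CPM with PBS in Aire-stage cells, against 558 and 725 CPM with spermidine and 611 and 586 CPM with PBS in dendritic-like cells. No Aire-stage value came near a dendritic-like one, and the mean in Aire-stage cells was 0.317 times that in dendritic-like cells. H2-DMb1 was likewise 215 ± 19.6 CPM in Aire-stage and 530.5 ± 174 CPM in dendritic-like cells. H2-DMb2, the other β chain gene of H2-DM, was opposite, at 449.7 CPM in Aire-stage and 166 CPM in dendritic-like cells. Reads may be mixed between these β chain genes, so H2-DMb1 alone does not give the level of the β chain. The Aire-stage over tuft-like ratio of mean levels was also smallest for H2-DMa and H2-DMb1, at 4.93 and 4.31, against 17.8 to 28.8 for the other 7 members. For H2-DMb2 that ratio was 35.1. In tuft-like cells H2-DMa was 39.9 ± 2.53 CPM, below the mean of the thymocyte-like cells (63.1 CPM).

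The inhibitor chain H2-Oa ran the other way. It was 371 and 455 CPM with spermidine and 481 and 497 CPM with PBS in Aire-stage cells, and 85.8 and 77.3 CPM with spermidine and 63.0 and 155 CPM with PBS in dendritic-like cells, so all Aire-stage values were above all dendritic-like ones and the means differed 4.73-fold. Cluster 10 (437 ± 71.2 CPM) overlapped with Aire-stage cells, and enterocyte- or hepatocyte-like cells (251 ± 34.2 CPM) came next. Low H2-Oa was not particular to dendritic-like cells (mean 95.3 CPM). Means were lower in microfold-like (84.3), immature mTEC-like (72.6), keratinocyte-like (51.8), neuroendocrine-like (50.6) and tuft-like cells (25.3 CPM). Muscle-like cells were lowest, at 13.9 CPM. H2-Ob, the partner of H2-Oa, did not separate Aire-stage from dendritic-like cells. It was 77.8 ± 9.17 CPM in Aire-stage and 71.4 ± 33.3 CPM in dendritic-like cells, where it rested on 61 UMIs. Per H2-DMa UMI, Aire-stage cells held 1.97 and 2.27 H2-Oa UMIs with spermidine and 2.48 and 2.44 with PBS, against 0.154 and 0.107 with spermidine and 0.103 and 0.265 with PBS in dendritic-like cells. Transit-amplifying-like cells lay between them at 1.37 ± 0.126, and tuft-like cells at 0.633 ± 0.059.

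A pair of neighbouring loci outside the 9 members also differed between Aire-stage and dendritic-like cells. H2-Eb2, a second β chain gene whose protein is little studied, was 469 ± 36.4 CPM in Aire-stage and 40.6 ± 12.3 CPM in dendritic-like cells. Immature mTEC-like and keratinocyte-like cells were as low, at 42.4 and 39.4 CPM. Per H2-Eb1 UMI there were 0.0858 ± 0.00286 H2-Eb2 UMIs in Aire-stage, 0.0876 in transit-amplifying-like, 0.0912 in tuft-like and 0.00400 ± 0.000923 in dendritic-like cells. This ratio varied among the other mTEC classes, from 0.0212 in immature mTEC-like to 0.126 in neuroendocrine-like cells. Keratinocyte-like (0.0396), enterocyte- or hepatocyte-like (0.0420) and microfold-like cells (0.0433) lay between. H2-DMb2, the second β chain of H2-DM, was 449.7 ± 14.6 CPM in Aire-stage and 166 ± 10.1 CPM in dendritic-like cells. Its ratio to H2-DMb1 was 3.26 ± 0.375 in transit-amplifying-like, 2.11 ± 0.183 in Aire-stage and 0.340 in dendritic-like cells. A low ratio was not particular to dendritic-like cells. The means were 0.245 to 0.306 in the clusters of the tuft-like class, 0.468 in keratinocyte-like and 0.462 in neuroendocrine-like cells. H2-DMb1 and H2-DMb2 are near-identical genes, so the split of reads between them is uncertain.

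**Figure D2:**
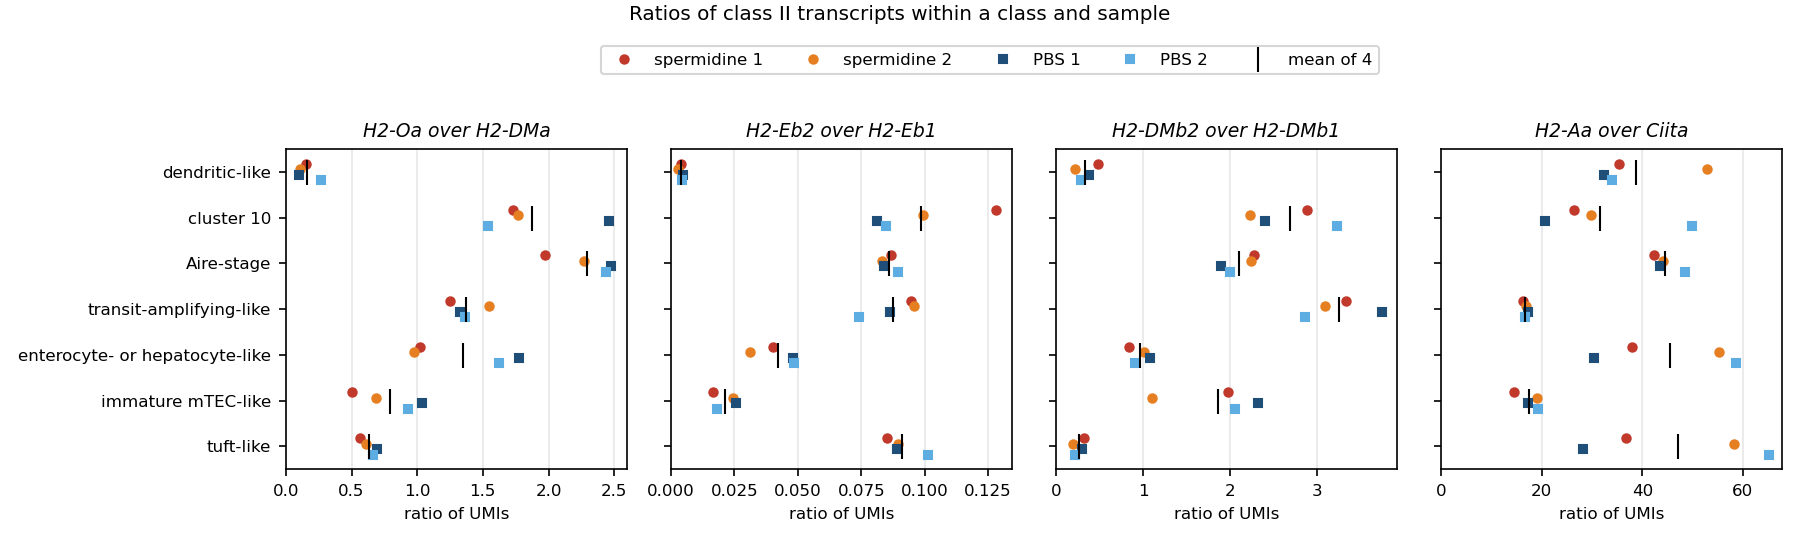
UMI ratios between class II genes by cell class (unitless, axes from 0). Points are the 4 hashed samples and black lines their mean; H2-Oa over H2-DMa and H2-Eb2 over H2-Eb1 are lowest in dendritic-like cells, and H2-Aa over Ciita is lowest in transit-amplifying-like and immature mTEC-like cells.

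The same split of classes appeared cell by cell. After each cell was thinned to 5000 UMIs (103 of 998 Aire-stage, 98 of 989 tuft-like and 40 of 96 thymocyte-like cells were shallower and left out), the 4 classical genes H2-Aa, H2-Ab1, H2-Eb1 and Cd74 made up a median of 3.54% of UMIs in Aire-stage cells, with 1.62% at the 10th and 6.14% at the 90th percentile. In 96.3% of Aire-stage cells the share was over 1%. Tuft-like cells had a median of 0.10%, and 1.01% of them were over 1%. Keratinocyte-like cells were mixed: their median was 0.32%, the 90th percentile was 1.70%, and 20.3% were over 1%. Immature mTEC-like cells straddled the line, with a median of 1.04% and 52.9% over 1%. The medians of Aire-stage cells were 3.54% and 3.46% with spermidine and 3.63% and 3.64% with PBS.

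**Figure D3:**
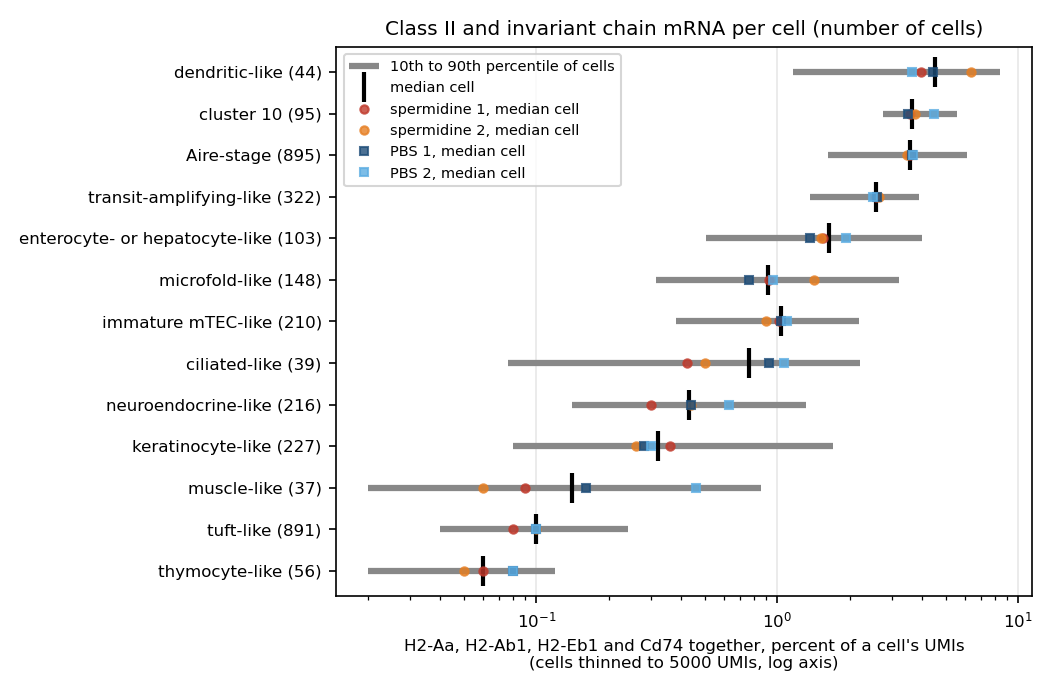
Share of UMIs from H2-Aa, H2-Ab1, H2-Eb1 and Cd74 per cell (percent, cells thinned to 5000 UMIs), by cell class. Black lines are medians, grey bars run between the 10th and 90th percentiles of cells, and points are sample medians (log axis); the median is 3.54% in Aire-stage cells and 0.10% in tuft-like cells, and keratinocyte-like cells spread up to 1.70% at the 90th percentile.

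A Ciita UMI was found in 47.3% ± 3.43 (SD, n = 4 samples) of thinned Aire-stage cells (74.0% without thinning) and in 69.8% of thinned transit-amplifying-like cells. In tuft-like cells it was found in 2.24% ± 0.423 after thinning (6.05% without), against 2.63% ± 5.26 of thymocyte-like cells (6.88% without). The thymocyte-like share was 10.5% in spermidine replicate 1 and 0% in the other samples, so it is a loose comparison. Cd74 had a UMI in 79.5% of thinned tuft-like and 82.0% of thinned thymocyte-like cells, H2-Aa in 57.2% of tuft-like and 39.5% of thymocyte-like cells, and H2-Eb1 in 63.4% of tuft-like and 36.3% of thymocyte-like cells.

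The dendritic-like cells were not uniform. Within them 3 sub-clusters were seen, each pooled over samples, and the intervals cover counting error only (exact Poisson, 95%). The 17 cells led by Ccr7 and Ccl22, genes of migratory dendritic cells, had 35.2 CPM of Ciita (interval 14.2 to 72.6, from 7 UMIs). The 24 cells led by Mgl2 and Ccl17, with 10 of 12 macrophage or monocyte markers also high, had 312 CPM of Ciita (261 to 369), and the 18 cells with Xcr1, Itgae and Wdfy4, genes of cross-presenting dendritic cells, had 282 CPM (221 to 354). H2-Aa differed far less: it was 6897 CPM in the Ccr7 sub-cluster (6537 to 7272), 9074 CPM in the Mgl2 sub-cluster and 10657 CPM in the Xcr1 sub-cluster. H2-DMa followed Ciita, at 136 CPM in the Ccr7 sub-cluster (89.5 to 198), 723 CPM in the Mgl2 sub-cluster (645 to 807) and 810.0 CPM in the Xcr1 sub-cluster. The H2-DMa and H2-DMb1 levels of the Ccr7 sub-cluster (136 and 60.4 CPM) lay below the Aire-stage means of 197 and 215 CPM. The Xcr1 sub-cluster was also led by Ctsg, Prtn3 and Elane, granule genes of neutrophil precursors.

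Of the proteins that work with Ciita, few followed it. A list of 22 genes for the promoter complex and its inducers had a median Aire-stage over tuft-like ratio of 0.825, and 4 of them (18.2%) were over 2, against 21.4% of 11353 genes. The RFX subunit Rfx5 was 3.53 times and Irf8, an interferon regulatory factor, 12.97 times as high in Aire-stage as in tuft-like cells. Ifngr1, a chain of the interferon-γ receptor, and Prdm1, a repressor of Ciita, were 2.74 and 2.30 times as high. Prdm1 was near the floor, at 4.52 CPM in Aire-stage and 1.97 CPM in tuft-like cells, with overlapping ranges. The other RFX subunits Rfxap and Rfxank had ratios of 0.517 and 0.684, and the NF-Y subunits Nfya, Nfyb and Nfyc 0.603, 0.708 and 0.655. All 9 members had a ratio over 2, with a median of 21.01. RNA of 5 of the 6 RFX and NF-Y subunits, which bind the X and Y boxes, was higher in the mean in tuft-like than in Aire-stage cells. These subunits had at most 50.7 CPM in tuft-like cells, and RNA does not give protein or binding. Whether their levels bear on class II RNA in tuft-like cells was not tested.

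The class II processing list of 14 genes stood between: its median ratio was 1.63, and 6 of 14 were over 2. They were the proteases Ctss (15.2), which trims Cd74, and Ctsh (14.4), the thiol reductase Ifi30 (6.76), Cd83 (4.67), which holds class II at the surface, the Cd74-cleaving Sppl2a (2.82), and Lgmn (2.18). Ctss was 0.212 times as high in Aire-stage as in dendritic-like cells.

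Across the 11 epithelial classes the genes most like the mean of H2-Aa, H2-Ab1, H2-Eb1, Cd74 and H2-DMa, out of 12539, were H2-DMb2 (Pearson r = 0.983 on log2(CPM + 1)), Nfkb2 (0.968), Srgn (0.965), Pex16 (0.963), Tkt (0.955), Gnb4 (0.947), Praf2 (0.945) and Psmb10 (0.944). Those nearest to Ciita were H2-DMb2 (0.953), Pakap (0.947), Cxcl10 (0.941), Psmb10 (0.937) and Msc (0.935). Classes share 1 library and differ in depth and in the sort gate, so these are descriptions. Among the members, H2-Aa and H2-Ab1 had r = 0.992, Ciita and H2-Aa 0.922, and Ciita and H2-Ob 0.697.

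The treatment was compared on UMIs summed per sample, with edgeR's quasi-likelihood test and Benjamini-Hochberg adjustment over all genes tested. In all mTECs together, class II RNA was higher in the mean with spermidine, by an amount that did not pass the test. The 9 members took 2.46% and 2.45% of mTEC UMIs with spermidine, against 1.57% and 2.19% with PBS (difference 0.576 percentage points, exact two-sided permutation p = 0.33, the smallest that 2 against 2 allows). Per cell this was 457 and 432 UMIs with spermidine and 257 and 378 UMIs with PBS. Ciita stood at 144 and 136 CPM with spermidine and 88.3 and 108 CPM with PBS, a log2 fold change of 0.55 (SE 0.129, adjusted p = 0.212 by edgeR). Cd74 stood at 12089.8 and 11637 CPM with spermidine and 7328 and 10127 CPM with PBS, a log2 fold change of 0.48 (SE 0.197, adjusted p = 0.341 by edgeR). H2-Aa stood at 4302 and 4409 CPM with spermidine and 2813 and 3995 CPM with PBS, a log2 fold change of 0.39 (SE 0.199, adjusted p = 0.422 by edgeR). For these 3 genes the groups did not overlap, and PBS replicate 1 was the lowest sample.

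All 9 members had a positive log2 fold change in all mTECs, from 0.19 for H2-DMb1 to 0.55 for Ciita, with a median of 0.35 against 0.00 over all 21426 genes tested. For 6 of 9 members both spermidine samples were above both PBS samples, where 24.7% of all genes did so. None of the 9 passed the adjusted p of 0.05 by edgeR (range 0.212 to 0.619), as 0.0% of all genes did, while at an unadjusted p under 0.05 edgeR counted 1 member and 3305 genes. DESeq2 called 1 member, Ciita (adjusted p = 0.0227), and 513 genes. The values depended on which PBS sample was used: without PBS replicate 1 the log2 fold changes of Ciita, Cd74 and H2-Aa were 0.39, 0.24 and 0.14, while without PBS replicate 2 they were 0.72, 0.75 and 0.69, and 6 members and 785 genes passed.

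The make-up of the samples moved with this difference. Aire-stage cells, with 3.96% class II UMIs, were 33.6% and 34.7% of mTECs with spermidine and 18.9% and 25.8% with PBS. Tuft-like cells, with 0.161%, were 22.1% and 21.4% of mTECs with spermidine and 36.4% and 29.6% with PBS. With every class held at its mean share of mTEC UMIs, a calculation added after the data were seen, the 9 members took 2.10% and 2.15% with spermidine and 2.12% and 2.29% with PBS, a difference of -0.0838 percentage points (exact permutation p = 0.667). Ciita at the fixed mix was 121 and 119 CPM with spermidine and 122 and 114 CPM with PBS. The sort and the pooling of the sorted cells can set these shares.

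**Figure D4:**
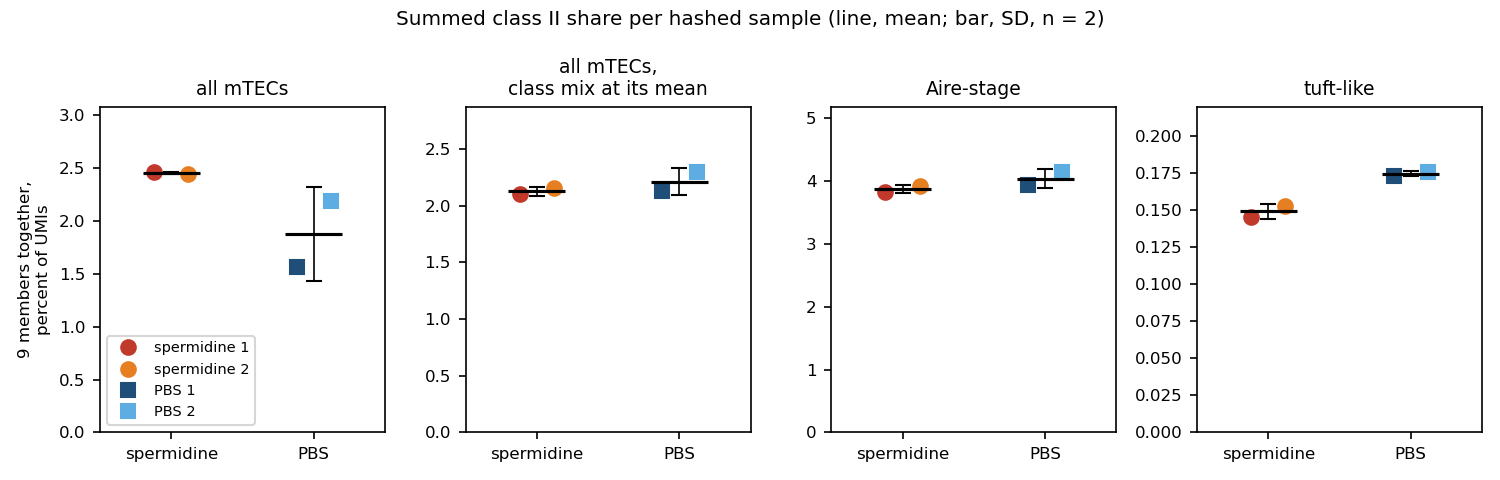
Summed share of the 9 members (percent of UMIs, each axis from 0) in all mTECs, in all mTECs with the class mix held at its mean, in Aire-stage cells and in tuft-like cells. Points are samples, spermidine left and PBS right, lines are means and bars the SD (n = 2); spermidine lies above PBS in all mTECs (2.46% and 2.45% against 1.57% and 2.19%) but not at the fixed mix or within the 2 classes.

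Within Aire-stage cells no member passed the test. The 9 members took 3.83% and 3.92% of UMIs with spermidine and 3.93% and 4.15% with PBS (exact permutation p = 0.33). Log2 fold changes ran from -0.27 for H2-Ob to -0.01 for Cd74, all 9 below 0, with a median of -0.12 against 0.00 over 17298 genes. For H2-Aa, H2-Eb1, H2-DMb1, H2-Oa and H2-Ob both spermidine samples were below both PBS samples (5 of 9, where 18.1% of all genes were). Adjusted p-values were high (0.770 to 0.994 by edgeR), and of all genes 0.0% passed. At an unadjusted p under 0.05, edgeR counted 1 member, H2-DMb1, and 1112 genes, and DESeq2 called 0 members and 73 genes. Ciita had a log2 fold change of -0.03 (SE 0.0886). The sign of Cd74 was not fixed: it was 0.01 with hashtags assigned from the 4 labelled tags only.

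In transit-amplifying-like cells, where Ciita was high, its log2 fold change was 0.08 (SE 0.0939), and the 9 members ran from -0.34 to 0.08. None was called (adjusted p 0.767 to 0.997 by edgeR), where 0.103% of genes were. None had an unadjusted p under 0.05, where edgeR counted 858 of 11704 genes.

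Tuft-like cells had fewer class II UMIs with spermidine in the mean, at low levels. The 9 members took 0.145% and 0.153% of UMIs with spermidine and 0.173% and 0.175% with PBS (exact permutation p = 0.33), or 17.4 and 20.8 UMIs per cell with spermidine and 24.2 and 22.7 with PBS. H2-Aa had a log2 fold change of -0.30 (SE 0.0961, adjusted p = 0.310 by edgeR) and Cd74 one of -0.23 (SE 0.0810, adjusted p = 0.338 by edgeR). These were the 2 members with an unadjusted p under 0.05, where edgeR counted 1278 of 12705 genes. All 9 log2 fold changes were below 0 and for 6 of 9 members the groups did not overlap, where spermidine was lower in this way for 20.7% of all genes. None was called, against 0.165% of the 12705 genes tested. The ranges of 8 members overlapped with the thymocyte-like ones, but H2-Eb1 was higher in all 4 tuft-like samples (244 and 248 CPM with spermidine, 295 and 254 CPM with PBS) than in the thymocyte-like ones (179 and 125 CPM with spermidine, 209 and 200.3 CPM with PBS). H2-Aa in thymocyte-like cells was 258 and 135 CPM with spermidine and 432 and 343 CPM with PBS, in 8 to 38 cells per sample, and a part of free RNA in the tuft-like values was not tested. With hashtags assigned from the 4 labelled tags only, 5 of the 9 tuft-like log2 fold changes were above 0, among them Ciita at 0.43.

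**Figure D5:**
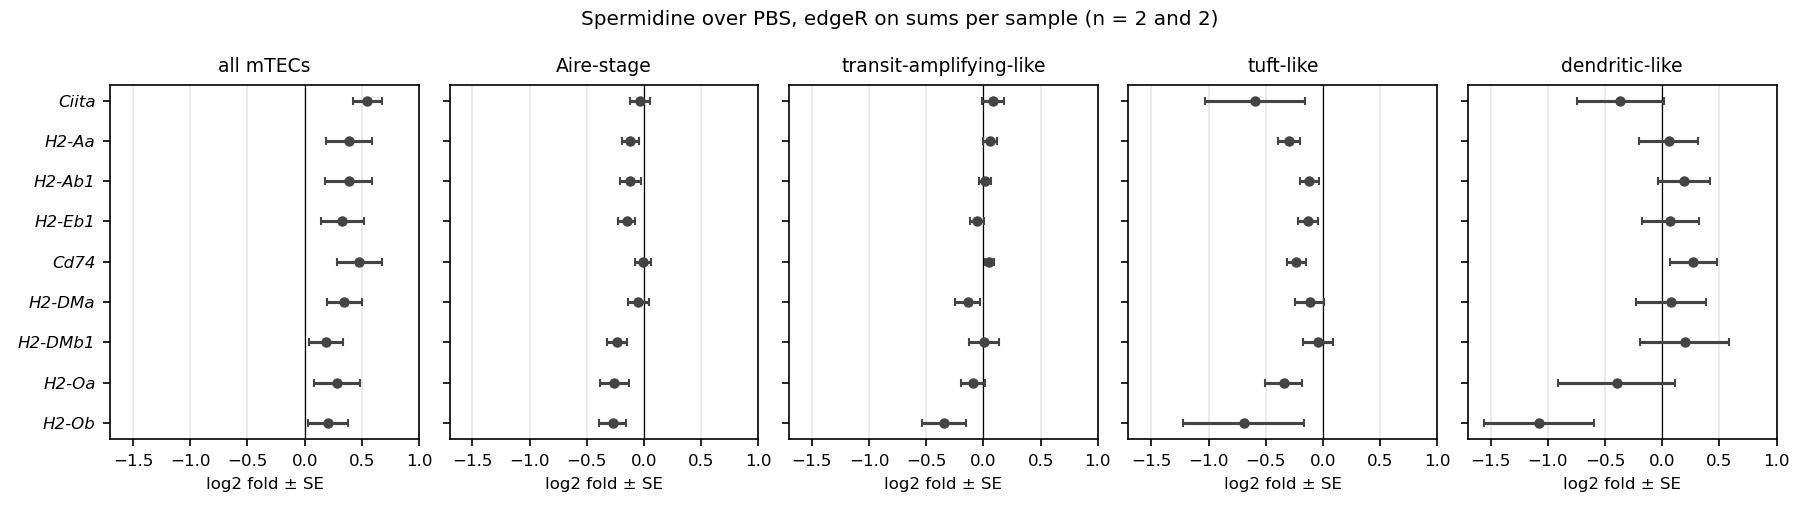
Log2 fold change of spermidine over PBS for each of the 9 members, with its SE from edgeR, in all mTECs, Aire-stage, transit-amplifying-like, tuft-like and dendritic-like cells. Values are above 0 for all 9 members in all mTECs (0.19 to 0.55) and below 0 for all 9 in Aire-stage (-0.27 to -0.01) and tuft-like cells (-0.69 to -0.04), and no member passes the adjusted p of 0.05 in any of them.

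The difference between these effects was tested in 1 model over both classes of each sample. The Aire-stage minus tuft-like difference in log2 fold change was 0.59 for Ciita (SE 0.406, adjusted p = 0.933 by edgeR) and 0.27 for Cd74 (SE 0.165, adjusted p = 0.906 by edgeR). Its median over the 9 members was 0.12, against 0.06 over 17868 genes, and none was called where 0.0168% of genes were. None had an unadjusted p under 0.05 by edgeR, where 1059 genes did. With hashtags assigned from the 4 labelled tags only the median was -0.10.

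Dendritic-like cells numbered 15 and 15 with spermidine and 15 and 14 with PBS, so precision was low. The 9 members took 4.996% and 6.49% of their UMIs with spermidine and 5.79% and 4.27% with PBS (exact permutation p = 0.667). Log2 fold changes ran from -1.08 for H2-Ob (SE 0.482, adjusted p = 0.999 by edgeR) to 0.27 for Cd74 (SE 0.205), and none was called among 0.0% of genes. At an unadjusted p under 0.05 edgeR counted 1 member, H2-Ob, and 92 genes, and DESeq2 called 0 members and 1 gene. H2-Ob was 39.0 and 53.2 CPM with spermidine and 78.8 and 115 CPM with PBS. The sub-clusters were unevenly spread over the samples. The Xcr1 sub-cluster, with 131 CPM of H2-Ob, had 1 and 4 cells with spermidine and 4 and 9 with PBS. The Mgl2 sub-cluster (50.8 CPM) had 6 and 8 cells with spermidine and 8 and 2 with PBS. The Ccr7 sub-cluster (25.2 CPM) had 8 and 3 cells with spermidine and 3 and 3 with PBS. Epcam, an epithelial marker, was at 558 and 788 CPM in these cells with spermidine and 331 and 161 CPM with PBS, and Ptprc, the CD45 gene, at 343 and 464 CPM with spermidine and 575 and 356 CPM with PBS. The part of the sub-cluster mix, and of the cells behind these Epcam and Ptprc levels, in the result was not tested.

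In the other 6 classes that could be fitted, none of the members tested (8 of 9 in immature mTEC-, keratinocyte- and microfold-like cells, otherwise 9) passed, as for 0.0% of genes in each. At unadjusted p under 0.05 the members were Ciita in keratinocyte-like cells, H2-Eb1 and H2-DMb1 in neuroendocrine-like, H2-DMa in immature mTEC-like and H2-Ob in enterocyte- or hepatocyte-like cells, against 555, 547, 552 and 372 genes in these classes, and 0 members in cluster 10 and microfold-like cells, against 428 and 404 genes. The microfold-like count was not fixed: with hashtags assigned from the 4 labelled tags only it was 5 members, against 422 genes. Ciita in keratinocyte-like cells was 36.7 and 40.5 CPM with spermidine and 19.3 and 15.6 CPM with PBS (log2 fold change 1.11, SE 0.312, adjusted p = 0.579 by edgeR), from 97 UMIs in all. H2-Eb1 in neuroendocrine-like cells was 457 and 595 CPM with spermidine and 653 and 1296 CPM with PBS (log2 fold change -0.88, SE 0.327, adjusted p = 0.875 by edgeR, and 0.000145 with no filter of low counts). Leaving out PBS replicate 2 gave -0.28, and leaving out PBS replicate 1 gave -1.30. The median of the 9 members in these cells was -0.44 with all samples. It was 0.03 when PBS replicate 2 was left out, and -0.93 when PBS replicate 1 was.

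edgeR called 0 of the 38 genes tested from the lists around the members in any class. DESeq2 called 2, both in all mTECs: Ctsl (log2 fold change -0.50, adjusted p = 0.0236) and Cd83 (1.07, adjusted p = 0.0142). At unadjusted p under 0.05 by edgeR, the lists of 22 inducers and 14 processing genes held 3 and 5 genes in all mTECs, 2 and 1 in Aire-stage cells and 3 and 4 in tuft-like cells. Over all genes tested, the same cut held 3305 of 21426 in all mTECs, 1112 of 17298 in Aire-stage and 1278 of 12705 in tuft-like cells. Of the 22 genes of the promoter complex and its inducers, 8 had a positive and 14 a negative log2 fold change in Aire-stage cells, with a median of -0.08. Irf8, the most abundant of them, was 302 and 291 CPM with spermidine and 395 and 368 CPM with PBS in Aire-stage cells (log2 fold change -0.38, SE 0.0841, adjusted p = 0.682 by edgeR). Of the 14 processing genes, 3 were positive and 11 negative in Aire-stage cells (median -0.13), and 4 positive and 10 negative in tuft-like cells (median -0.17). Ctsl, which cleaves Cd74 in cortical thymic epithelium, came nearest to the threshold, at 56.5 and 54.8 CPM with spermidine and 87.9 and 98.5 CPM with PBS in tuft-like cells (log2 fold change -0.71, SE 0.121, adjusted p = 0.0513 by edgeR). H2-DMb2 and H2-Eb2 had positive log2 fold changes in all mTECs (287 and 283 CPM with spermidine against 175 and 241 CPM with PBS for H2-DMb2) and negative ones in Aire-stage and tuft-like cells, and edgeR called neither.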

How the data were processed

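The deposited files hold raw UMI counts of genes and hashtags for each barcode, per the file headers, which name Cell Ranger 7.1.0. In addition, the submitters' processing notes name bcl2fastq, Seurat and mm10, while the authors' annotation and read filters are not stated there. The table held 12139 barcodes, 55487 genes and 15 hashtags, and no sample column was left unused (0). Gene identifiers of all 9 members had the same version in GENCODE M21 (54435 of all identifiers did, and 55227 in any version). Barcodes with at least 1000 UMIs, 500 genes and under 15% mitochondrial UMIs were kept (8534). HTODemux of Seurat 5.3.0 (quantile 0.99), run on hashtags HT2 to HT7, assigned 3739 of them to a labelled sample and called 1887 doublets and 502 negatives. HT2 and HT3 were spermidine and HT4 and HT5 PBS, per the labels. Doublets were removed by hashtag alone, and no barcode was shared between samples (0). Cells were clustered in scanpy 1.11.5 (2000 variable genes without the members, 30 components, 15 neighbours, Leiden resolution 1). When the members were allowed, 0 of them were among the variable genes and 94.2% of barcodes kept their class. At resolution 0.5, 88.5% did.

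Counts were summed per sample and class, where each sample had at least 10 cells, and tested with edgeR 4.0.16 in R 4.3.3 (quasi-likelihood, TMM, filterByExpr with a minimum count of 10 and a total of 15, adjusted p 0.05). The steps were tested on simulated data. CPM was computed from the deposited counts and each class's own UMIs. Alternatives were DESeq2 1.42.0, other size factors, no filter of low counts, a replicate block, leaving out samples, and other hashtag, mitochondrial and cluster settings. The members, lists and tests were chosen with earlier results of these data known. Named were all 9 members, up to 6 genes of each list by mean level and the 8 and 5 nearest genes. The RFX, CREB and NF-Y genes and the list genes over 2-fold between Aire-stage and tuft-like cells that the rule does not reach were chosen after their values were seen.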

Additional observations from a re-analysis of the deposited data

Results flagged for a closer look

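Of the 8534 kept barcodes, 1187 carried hashtag HT6 and 1219 carried HT7, which the labels tie to no sample. They stood out because their number is close to that of the labelled hashtags, while the 9 other hashtags without a sample reached at most 13890 counts each, against at least 2057190 for each of HT2 to HT7. These cells entered the clustering but no comparison.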

How the results depend on the processing

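The number of members called stayed at 0 in every fit under the alternatives run, apart from all mTECs (1 with DESeq2, 6 with no filter of low counts, 0 to 6 leaving out a sample), neuroendocrine-like cells (2 with no filter) and tuft-like cells (2 with no filter, 0 to 1 leaving out a sample). Genes called depended far more on the setting. With DESeq2 they were 513 in all mTECs, 73 in Aire-stage, 37 in tuft-like, 36 in transit-amplifying-like, 21 in enterocyte- or hepatocyte-like, 17 in keratinocyte-like, 13 in neuroendocrine-like cells and in cluster 10, 11 in microfold-like and 1 in dendritic-like cells. With no filter of low counts they were 2632 in all mTECs, 651 in Aire-stage, 527 in transit-amplifying-like, 441 in cluster 10, 338 in tuft-like, 330 in keratinocyte-like, 307 in neuroendocrine-like, 232 in enterocyte- or hepatocyte-like, 169 in immature mTEC-like, 129 in microfold-like and 32 in dendritic-like cells, and 254 for the class difference. The 4-hashtag assignment gave 6, 5 and 1 in transit-amplifying-, tuft- and neuroendocrine-like cells and 0 for the class difference, the margin rule 3 and 8 in transit-amplifying- and tuft-like cells, and the 25% mitochondrial limit 0, 10, 3 and 1 in transit-amplifying-, tuft-, neuroendocrine- and microfold-like cells. Leaving out each sample in turn, genes called ranged over 0 to 785 in all mTECs, 0 to 1 in Aire-stage, 119 to 437 in tuft-like, 33 to 114 in transit-amplifying-like, 19 to 36 in dendritic-like, 0 to 53 in cluster 10, 0 to 228 in enterocyte- or hepatocyte-like, 0 to 26 in immature mTEC-like, 2 to 108 in keratinocyte-like, 21 to 101 in microfold-like and 5 to 51 in neuroendocrine-like cells, and 44 to 217 for the class difference. The lone sample of a group is then assumed to vary like the other group. The cause was not tested.

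Samples of the same number did not deviate together over the genes tested (correlations -0.0158, -0.0255 and 0.0404 in all mTECs, Aire-stage and tuft-like cells). Counting noise can lower such correlations, so they do not settle whether the numbers pair the samples. With the replicate block, genes called were 184 in tuft-like, 136 in transit-amplifying-like, 14 in neuroendocrine-like, 11 in enterocyte- or hepatocyte-like and 4 in keratinocyte-like cells, and no member was called. The class difference has each sample as a term, so a further block was not run there.

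Signs of small effects turned. In Aire-stage cells Cd74 was 0.0093 with no filter and 0.011 with 4 hashtags, and leaving out a sample it ranged from -0.056 to 0.031 and Ciita from -0.077 to 0.00052. In tuft-like cells the 4-hashtag assignment gave Ciita 0.43, H2-Eb1 0.14, H2-DMb1 0.088, H2-Ab1 0.075 and Cd74 0.0079, 4 of 9 members lower and a summed difference of 0.00258 percentage points. The 25% limit gave H2-Ab1 0.054, H2-Eb1 0.0044 and Cd74 0.0022 there, and leaving out a sample Ciita ranged from -0.98 to 0.21 and H2-DMb1 from -0.15 to 0.070. Of the 4709 cells assigned with 4 hashtags, 897 were doublets with 6. In microfold-like cells 4 of 8 members tested were higher with spermidine in the main fit. All 9 were with 4 hashtags (median 0.49, 5 at unadjusted p under 0.05 by edgeR). All 9 were also with the margin rule (0.49 and 3). DESeq2, the 25% limit and resolution 0.5 kept 4 higher and 4 lower. In enterocyte- or hepatocyte-like cells 5 of 9 were higher in the main fit and with the margin rule. With the 25% limit 4 were, and with 4 hashtags 0 (median -0.28). In all mTECs the fixed class mix turned the summed difference to -0.0838, and H2-Ob ranged from -0.029 to 0.47 leaving out a sample. The whole myeloid cluster in place of its dendritic-like cells, added after seeing the data, gave H2-Aa -0.22, H2-DMa -0.20, H2-Eb1 -0.20, H2-Ab1 -0.080, H2-DMb1 -0.015 and Cd74 -0.00029, with 0 members higher. It added 3 and 6 cells with spermidine and 1 and 0 with PBS. In spermidine replicate 2 a sub-cluster of 3 added cells held 113627 of its 339386 UMIs, but 10 H2-Aa and 15 Cd74 UMIs. The part of these added cells in the turned signs was not tested. In dendritic-like cells 4 hashtags gave H2-Aa -0.13 and H2-Eb1 -0.080. Leaving out a sample, 1 to 6 of 9 members were higher there, the summed difference ranged from -0.0470 to 1.48 percentage points, and log2 fold changes from -0.26 to 0.31 for H2-Aa, -0.11 to 0.43 for H2-Ab1, -0.18 to 0.34 for H2-Eb1, -0.13 to 0.24 for H2-DMa, -0.42 to 0.62 for H2-DMb1 and -0.997 to 0.38 for H2-Oa. Ctsl in tuft-like cells kept its sign under every alternative run. It passed the adjusted p with no filter, the replicate block, resolution 0.5 (0.0451) and each sample left out, and DESeq2 gave it no adjusted p. With no filter of low counts edgeR called 13 of 39 list genes in at least 1 class, among them Ctsl in all mTECs, tuft-, immature mTEC-, enterocyte- or hepatocyte- and dendritic-like cells.

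Mean summed shares moved by more than 1 SD at resolution 0.5 (Aire-stage 3.74%, transit-amplifying-like 2.42%, immature mTEC-like 1.18%, keratinocyte-like 0.590%), with 4 hashtags (transit-amplifying-like 2.69%, keratinocyte-like 0.804%, tuft-like 0.197%), with the 25% limit (thymocyte-like 0.690%) and with members allowed in clustering (transit-amplifying-like 2.56%, thymocyte-like 0.540%). Depth limited Ciita in tuft-like cells (95 UMIs) and all values of the 59 dendritic-like cells.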

Other observations

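The 2 clusters of the Aire-stage class differed in H2-Oa while holding like levels of H2-Aa. Cluster 0, led by Ccl5, Fabp9 and Klk1b11, had 492 and 609 CPM of H2-Oa with spermidine and 559 and 608 CPM with PBS. Cluster 1 had 292 and 322 CPM with spermidine and 374 and 352 CPM with PBS, so all 4 values of cluster 0 were higher. H2-DMb2 ran the other way, at a mean of 361 CPM in cluster 0 and 539.8 CPM in cluster 1, as did Aire, at 441 CPM and 943 CPM. H2-DMb1 had a mean of 241 CPM in cluster 0 and 187 CPM in cluster 1, opposite to H2-DMb2, with which its reads may be mixed, and H2-DMa 191 CPM in cluster 0 and 200.5 CPM in cluster 1. Mean H2-Aa was 7528 CPM in cluster 0 and 7316 CPM in cluster 1. These are descriptions of clusters, with no test.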
